A study of Mus musculus with 10 samples.

Results

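Polycomb complexes are the chromatin repressors that keep developmental genes silent, and 9 genes encoding their core subunits were followed here: Ezh1, Ezh2, Eed, Suz12, Bmi1, Rnf2, Cbx2, Cbx7 and Cbx8. The genes were chosen by name from the 26227 genes in the files, all 9 were listed, and 8 passed the filter for testing. RNA was sequenced from cultured ER-Hoxa9-Lys-GFP cells, a mouse myeloid progenitor line of C57BL/6 origin, to ask when such cells become committed to differentiate. As background, the Hoxa9 of these cells is fused to an estrogen receptor domain, so that estradiol (E2) keeps it active and holds the cells as progenitors, and the GFP of the line's name reports on the lysozyme gene. The 10 libraries formed 5 groups of 2. The untreated cells kept E2 throughout. In the 24 h, 40 h and 72 h groups E2 was withdrawn for that time and then restored for 96, 80 and 48 h. In the 120 h group E2 was withdrawn for 120 h with no return. Longer withdrawal came with a shorter time of restored E2, and their parts cannot be told apart. All cells were grown with stem cell factor from conditioned medium. The labels do not say whether the line is 1 clone or whether separate cultures gave the 2 libraries of a group, and the p-values reflect the spread within pairs of libraries and that spread may be technical.

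As background, Polycomb repressive complex 2 (PRC2) methylates histone H3 through Ezh2 or its paralog Ezh1, with Suz12 as scaffold and Eed binding the methyl mark. Polycomb repressive complex 1 (PRC1) ubiquitinates histone H2A through the ligase Rnf2 (also Ring1B), which works with a Pcgf protein such as Bmi1. In the canonical form of PRC1 a Cbx protein reads the PRC2 mark with its chromodomain. In blood cells Ezh2 is known as the form of dividing cells and Ezh1 as a form kept in non-dividing cells, and Bmi1 is known for its part in the self-renewal of stem cells.

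The libraries were deep, with 173620000 to 204390000 reads in the denominators of the deposited RPKM (reads scaled by transcript length and by the size of the library), and a single read over 2 kb of transcript added 0.00245 to 0.00288 RPKM. As a check of the labelled cell type, 5 progenitor markers (Kit, Cd34, Flt3, Meis1, Myb) were present, and their summed RPKM was 1494 to 1523 in untreated cells, 619 to 659 in the 72 h group and 75.5 to 106 in the 120 h group. The sum of 5 granulocyte markers went from 0.993 to 2.41 in untreated cells to 241 to 444 in the 72 h group and 18983 to 19848 in the 120 h group. The sum of 5 monocyte and macrophage markers rose from 4.93 to 5.16 to 645 to 707 in the 72 h group and 1287 to 1324 in the 120 h group. The 5 lymphocyte markers summed to at most 0.305, with 2 to 4 of them at 0 in every library, and the 5 erythroid and megakaryocyte markers to at most 18.4. The 2 libraries of the 120 h group differed more from each other than those of other groups, with a median absolute log2 difference over genes of 0.248 against 0.0602 to 0.119. Replicate 2 of that group held more of the nuclear RNAs Malat1 (35.9 against 5.91 RPKM) and Neat1 (11.7 against 2.42 RPKM). Replicate 2 of the 72 h group also held more Malat1 (11.2 against 3.71 RPKM) and Neat1 (4.22 against 1.23 RPKM). In the other groups replicate 2 was higher in both RNAs too, by less, as for Malat1 in the 40 h group (4.33 against 3.01 RPKM). In bulk RNA, fewer cells of a type and less RNA per cell cannot be told apart. Of the label checks, Kit fell from 152 and 158 to 26.7 and 15.4 RPKM and Meis1 from 10.6 and 11.2 to 0.71 and 1.10 RPKM in the 120 h group, while Hoxa9 was at 50.2 and 60.0 RPKM in untreated cells and at 94.5 and 97.9 RPKM in the 120 h group. Whether these Hoxa9 reads came from the fusion or from the cells' own gene was not tested.

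The genes lie apart from each other except at 1 place. On GRCm38, the PRC2 genes are Ezh1 at chr11:101191116-101226450 on the minus strand, Ezh2 at chr6:47530139-47595030 on the minus strand, Eed at chr7:89954654-89980983 on the minus strand and Suz12 at chr11:79993106-80034123 on the plus strand. Among the PRC1 genes, Bmi1 lies at chr2:18677018-18686629 on the plus strand, Rnf2 at chr1:151469405-151500811 on the minus strand and Cbx7 at chr15:79915810-79932639 on the minus strand. Cbx2 (chr11:119022962-119031270, plus strand) and Cbx8 (chr11:119036305-119040969, minus strand) are neighbours with 5034 bases between them. These positions are those of the 1 transcript that stands for each gene. Its exons share 92 nt with another gene in Ezh2, 261 nt in Eed, 178 nt in Suz12 and 97 nt in Cbx7, and none in the other 5, and whether counting used strand is not given in the sources used here.

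The promoter windows of Ezh2, Suz12 and Bmi1 are shown, which are 3 of the 5 subunits that fell in the 120 h group. Of the others, Cbx2 had no matched window and that of Cbx8 is not shown. RefSeq windows on GRCm38.p6, from 250 bases before to 50 bases after the start, were matched for 8 of the 9 genes, all but Cbx2. The windows were searched on both strands for 4 spellings of the E2F motif, as E2F factors are known to drive genes of dividing cells, and the capitals mark a match. The windows are chr6:47594981-47595280 on the minus strand for Ezh2, chr11:79992856-79993155 on the plus strand for Suz12 and chr2:18676768-18677067 on the plus strand for Bmi1.
Ezh2: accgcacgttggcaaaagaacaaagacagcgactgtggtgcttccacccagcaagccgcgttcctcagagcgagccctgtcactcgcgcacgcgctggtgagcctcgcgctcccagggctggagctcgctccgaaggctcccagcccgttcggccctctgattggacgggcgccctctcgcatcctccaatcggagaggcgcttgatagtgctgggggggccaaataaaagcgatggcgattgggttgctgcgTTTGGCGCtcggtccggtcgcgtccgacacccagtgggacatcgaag
Suz12: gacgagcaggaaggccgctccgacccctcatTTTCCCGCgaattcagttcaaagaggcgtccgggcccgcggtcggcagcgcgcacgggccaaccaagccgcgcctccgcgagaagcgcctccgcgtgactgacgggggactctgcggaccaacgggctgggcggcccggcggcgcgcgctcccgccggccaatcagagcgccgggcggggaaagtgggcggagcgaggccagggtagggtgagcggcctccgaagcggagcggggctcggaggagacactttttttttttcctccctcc
Bmi1: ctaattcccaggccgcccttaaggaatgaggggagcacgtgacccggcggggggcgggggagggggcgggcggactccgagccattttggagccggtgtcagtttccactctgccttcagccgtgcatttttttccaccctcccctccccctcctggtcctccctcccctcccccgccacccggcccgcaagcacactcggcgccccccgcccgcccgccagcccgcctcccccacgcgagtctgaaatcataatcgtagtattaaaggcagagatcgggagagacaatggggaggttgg
Ezh2 held TTTGGCGC beginning 3 bases after the start, and Suz12 held TTTCCCGC beginning 219 bases before it. No other window of the 8, that of Bmi1 included, held either of these or TTTCGCGC or TTTGCCGC. Of all 32851 promoter windows of this length, 744 (2.26%) held at least 1 of the 4, and TTTGGCGC was in 0.514% and TTTCCCGC in 1.07%. A match of letters is a description and not a shown binding site.

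In untreated cells Ezh2 was the most abundant of the 9 per unit of length, at 56.5 ± 1.90 RPKM (SD, n = 2), followed by Suz12 at 47.7 ± 1.62 RPKM. Rnf2 stood at 21.96 ± 0.750 RPKM, and Eed (18.0 ± 0.704 RPKM) and Bmi1 (17.6 ± 1.08 RPKM) overlapped in their libraries. Cbx2 followed at 11.9 ± 0.153 RPKM, Ezh1 at 4.77 ± 0.432 RPKM, Cbx8 at 3.06 ± 0.330 RPKM and Cbx7 at 0.61 ± 0.080 RPKM. The order changed by the 120 h group. There Suz12 (28.3 ± 4.71 RPKM), Eed (22.7 ± 7.56 RPKM), Rnf2 (19.5 ± 0.532 RPKM) and Ezh2 (17.9 ± 4.95 RPKM) came first, with each neighbour in that order overlapping the next. Ezh1 (9.65 ± 2.76 RPKM) overlapped with Bmi1 (7.50 ± 1.21 RPKM), then Cbx8 stood at 2.22 ± 0.419 RPKM, and Cbx2 (0.73 ± 0.129 RPKM) overlapped with Cbx7 (0.47 ± 0.355 RPKM).

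**Figure D1:**
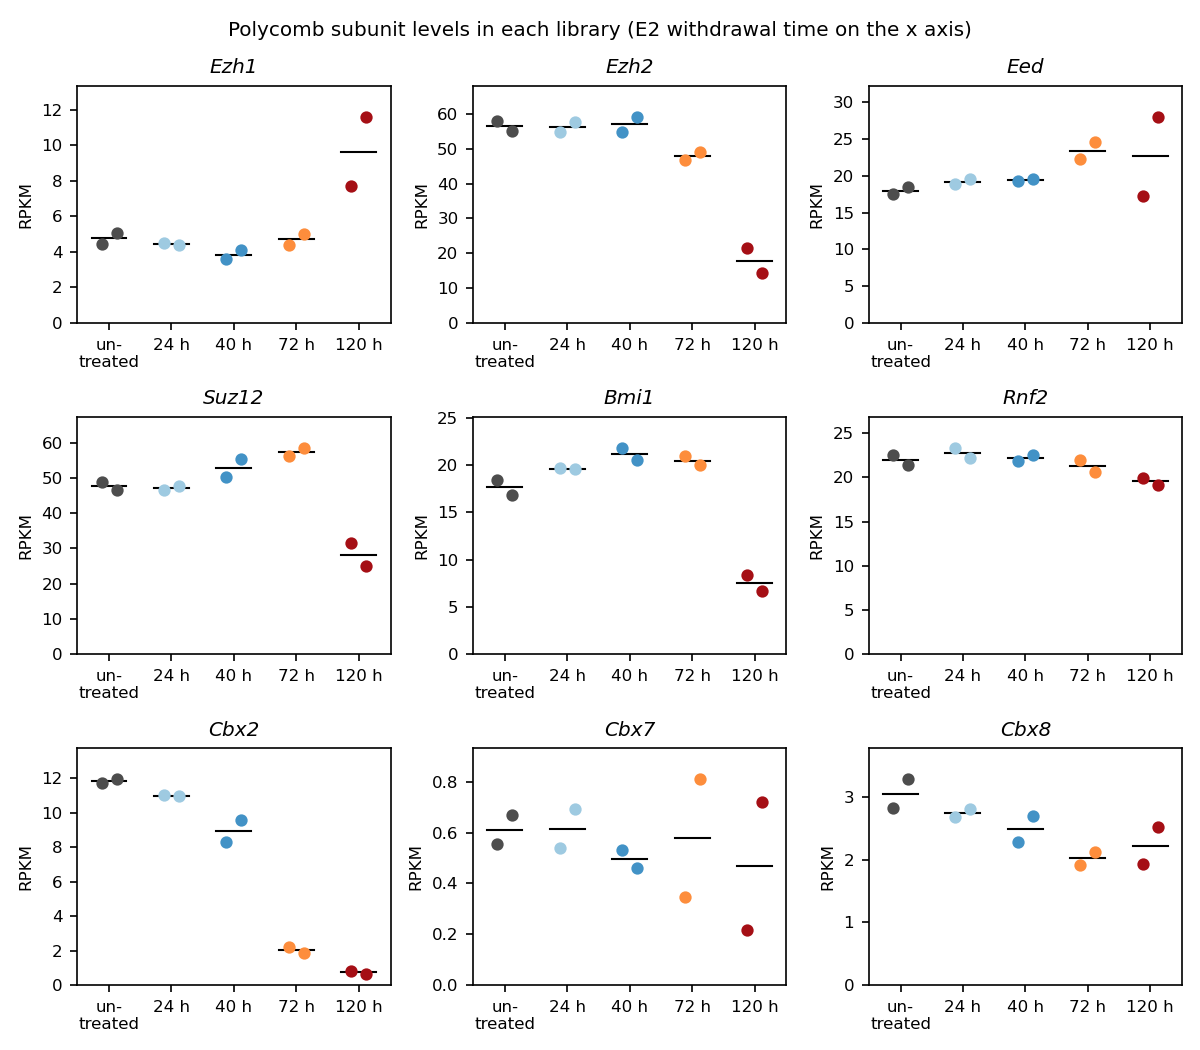
RPKM (y axis, from 0, with its own scale in each panel) of the 9 core subunits in every library, by group (x axis, hours of E2 withdrawal); points are libraries and the line is the mean of 2. Cbx2 was at 8.32 RPKM or more in the first 3 groups and at 2.19 RPKM or less in the 72 h and 120 h groups. Cbx2, Ezh2, Suz12 and Bmi1 were all lowest in the 120 h group, and Cbx2 was already low in the 72 h group.

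Across the comparison of the 120 h group with untreated cells, 5 of the 8 tested subunits fell (Ezh2, Suz12, Bmi1, Cbx2 and Cbx8) and 1 rose (Ezh1), by limma's test with Benjamini-Hochberg (BH) adjustment over 13004 genes. Over all genes tested, 52.7% were called lower and 27.5% higher, 80.3% in all, so these shares are near the background. The median log2 fold change of the 8 was -0.54, against -0.36 over all genes tested. Fold changes here are of log2(RPKM + 1), a scale that understates the change of low genes. Scaling by the median of ratios moved the median of all genes to -0.0015. Values under that scaling, given beside some of the results below, are relative to the typical gene.

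Ezh2, the methyltransferase subunit of dividing cells, lay at overlapping levels in the untreated, 24 h and 40 h groups and was low in the 120 h group. It stood at 57.8 and 55.1 RPKM in untreated cells, 54.9 and 57.5 in the 24 h group, 54.8 and 59.1 in the 40 h group, 46.7 and 49.1 in the 72 h group and 21.4 and 14.4 in the 120 h group. The 120 h libraries were below all others, the 72 h libraries were below the first 3 groups, and those 3 overlapped. The 120 h difference was a log2 fold change of -1.63 (SE 0.154, limma adjusted p = 2.00e-05), and -1.21 with median-of-ratios scaling. The 72 h difference was -0.23, with a 95% interval of -0.59 to 0.12 and limma adjusted p = 0.253; without the 120 h group in the fit, adjusted p was 0.0109. The direct test between the 72 h and 120 h groups gave 1.40 higher at 72 h (SE 0.154, limma adjusted p = 5.97e-05). All 12 listed Ezh2 transcripts, which share reads, were lower in the 120 h group, at 0.288 to 0.353 of their untreated mean.

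Ezh1, the paralog of Ezh2, moved the other way. It stood at 4.46 and 5.07 RPKM in untreated cells, 4.49 and 4.40 in the 24 h group, 3.60 and 4.11 in the 40 h group, 4.41 and 5.03 in the 72 h group and 7.70 and 11.6 in the 120 h group. The 120 h libraries were above the other 8, which lay close together. The log2 fold change was 0.86 (SE 0.164, limma adjusted p = 0.00127), and 1.26 with median-of-ratios scaling. It was 0.59 without replicate 2 of the 120 h group and 1.13 without replicate 1, so the size rested in part on replicate 2, the library with more Malat1 and Neat1, and their part was not tested. The 72 h group differed from untreated cells by -0.012 (95% interval -0.39 to 0.37, limma adjusted p = 0.961) and lay 0.87 below the 120 h group on the log2 scale (log2 difference -0.87, adjusted p = 0.0013). All 9 listed Ezh1 transcripts were higher in the 120 h group, at 1.89 to 2.61 times their untreated mean.

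Together the paralogs fell in summed level while their balance shifted. The sum of Ezh1 and Ezh2 was 62.3 and 60.2 RPKM in untreated cells, 51.1 and 54.2 RPKM in the 72 h group and 29.1 and 26.0 RPKM in the 120 h group. Ezh1 made up 7.17 and 8.43% of that sum in untreated cells, 6.16 to 9.29% in the 24 h, 40 h and 72 h groups, and 26.5 and 44.7% in the 120 h group. Ezh2 was thus 10.9 and 12.95-fold above Ezh1 in untreated cells and 2.78 and 1.24-fold above it in the 120 h libraries. This share was not tested by itself.

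Suz12, the scaffold of PRC2, was highest in the 72 h group and lowest in the 120 h group. It stood at 48.9 and 46.6 RPKM in untreated cells, 46.5 and 47.7 in the 24 h group, 50.4 and 55.5 in the 40 h group, 56.2 and 58.5 in the 72 h group and 31.6 and 24.9 in the 120 h group. The 72 h libraries were above, and the 120 h libraries below, all others. The 120 h log2 fold change was -0.75 (SE 0.111, limma adjusted p = 3.04e-04), and -0.31 (adjusted p = 0.0226) with median-of-ratios scaling. The 72 h difference from untreated cells was 0.26 (95% interval 0.0051 to 0.52), with limma adjusted p = 0.0911 and 0.00697 without the 120 h group in the fit. Between the 72 h and 120 h groups Suz12 differed by 1.01 (SE 0.111, limma adjusted p = 6.12e-05), and by 0.57 with median-of-ratios scaling.

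Eed, which binds the methyl mark and activates the enzyme, did not fall with its partners. It stood at 17.5 and 18.5 RPKM in untreated cells, 18.8 and 19.5 in the 24 h group, 19.3 and 19.6 in the 40 h group, 22.3 and 24.6 in the 72 h group and 17.3 and 28.02 in the 120 h group. The 72 h libraries were above those of the 3 groups with shorter or no withdrawal, and the 120 h libraries straddled all groups. The 120 h log2 fold change was 0.28 (95% interval -0.13 to 0.70, limma adjusted p = 0.179). That value rested on 1 library: it was -0.049 (adjusted p = 0.569) without replicate 2 of the 120 h group and 0.61 (adjusted p = 1e-04) without replicate 1. The 72 h difference was 0.36 (95% interval -0.052 to 0.78, adjusted p = 0.138, and 0.00159 without the 120 h group in the fit). With median-of-ratios scaling Eed was called higher in the 120 h group (0.71, adjusted p = 0.00814).

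Of the 4 PRC2 subunits, then, Ezh2 and Suz12 were low in the 120 h group and Ezh1 high, while the Eed libraries of that group were split.

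Bmi1, a Pcgf subunit of canonical PRC1, changed in the 120 h group as Ezh2 and Suz12 did. It stood at 18.4 and 16.9 RPKM in untreated cells, 19.7 and 19.6 in the 24 h group, 21.8 and 20.6 in the 40 h group, 20.9 and 20.0 in the 72 h group and 8.35 and 6.64 in the 120 h group. The untreated libraries were below those of the 24 h, 40 h and 72 h groups, and the 120 h libraries were below all others. The 120 h log2 fold change was -1.14 (SE 0.103, limma adjusted p = 1.55e-05), and -0.74 with median-of-ratios scaling. The 40 h difference was 0.25 (adjusted p = 0.237) and the 72 h difference 0.20 (adjusted p = 0.144), and these were called without the 120 h group in the fit (adjusted p = 0.0354 and 0.0227). The 72 h group lay 1.34 above the 120 h group (SE 0.103, limma adjusted p = 8.54e-06). All 7 listed transcripts of Bmi1 were lower in the 120 h group, at 0.425 to 0.483 of their untreated mean.

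Rnf2, the ubiquitin ligase of PRC1, varied least of the 9. Its libraries lay between 19.2 and 23.3 RPKM in all 5 groups, and at 19.9 and 19.2 RPKM in the 120 h group against 22.5 and 21.4 RPKM in untreated cells. The 120 h libraries were the lowest, but by a small margin. The log2 fold change was -0.16 (95% interval -0.32 to 0.0035, limma adjusted p = 0.0662), it was called lower without replicate 1 of the 120 h group (-0.19, adjusted p = 0.0396), and it turned to 0.26 (adjusted p = 0.0119) with median-of-ratios scaling, so its direction depended on the scaling. At 72 h it was -0.045 (95% interval -0.21 to 0.12, adjusted p = 0.633).

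**Figure D2:**
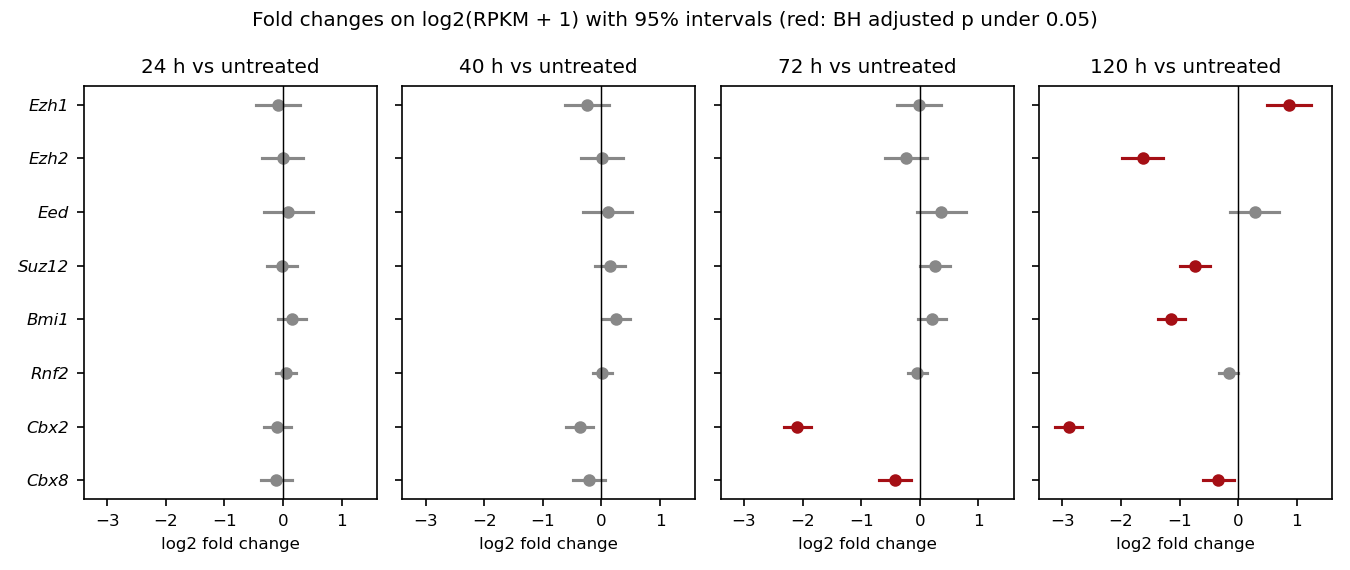
Log2 fold change of RPKM + 1 against untreated cells (x axis) for the 8 tested subunits (rows) in each of the 4 withdrawal groups (panels); points are limma estimates from 2 libraries a group, bars are 95% intervals and red marks an adjusted p under 0.05. Cbx2 stood at -2.09 in the 72 h group and -2.89 in the 120 h group, while Ezh2, Suz12 and Bmi1 were called only in the 120 h panel; with median-of-ratios scaling Rnf2 turned to 0.26, and was called, in the 120 h comparison.

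Cbx2, a chromodomain subunit of canonical PRC1, had the largest change of the 8 tested subunits and was already low in the 72 h group, where E2 had been restored for 48 h. It stood at 11.8 and 11.97 RPKM in untreated cells, 11.03 and 10.97 in the 24 h group, 8.32 and 9.59 in the 40 h group, 2.19 and 1.85 in the 72 h group and 0.83 and 0.64 in the 120 h group. No 2 groups overlapped, and the order of levels was the order of withdrawal. The log2 fold change against untreated cells was -2.09 at 72 h (SE 0.0996, limma adjusted p = 1.95e-06). At 120 h it was -2.89 (limma adjusted p = 8.46e-08), or -2.65 with median-of-ratios scaling, and the untreated mean RPKM was 16.1-fold higher. At 72 h it was called in all 20 alternative analyses, between -2.56 and -2.01. The step from the 40 h to the 72 h group was -1.72 (SE 0.0996, limma adjusted p = 1.11e-05) and that from the 120 h to the 72 h group 0.80 (adjusted p = 1.21e-04); the latter was 1.35 with a pseudocount of 0.1 and 1.48 with voom on recovered reads.

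The earlier steps of Cbx2 were smaller. The 40 h difference from untreated cells was -0.37 (95% interval -0.60 to -0.14), with limma adjusted p = 0.083 and unadjusted p = 0.00568, and it was called without the 120 h group in the fit (adjusted p = 0.0291). The 24 h difference was -0.10 (95% interval -0.33 to 0.13, limma adjusted p = 1). Cbx6, another chromodomain subunit and not one of the 9, stood at 1.97 and 2.21 RPKM in untreated cells, 0.53 and 0.64 in the 72 h group and 0.42 and 0.067 in the 120 h group, with log2 fold changes of -0.96 (limma adjusted p = 0.001) and -1.32 (adjusted p = 4.31e-05). With voom on recovered reads these were -1.84 and -3.69. Its exons share 563 nt with Npcd.

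Cbx8, the neighbour of Cbx2 on chromosome 11, was at a low level, and its changes were small on the log2(RPKM + 1) scale. It lay at 2.83 and 3.29 RPKM in untreated cells, 2.69 and 2.81 in the 24 h group, 2.29 and 2.70 in the 40 h group, 1.92 and 2.13 in the 72 h group and 1.93 and 2.52 in the 120 h group. The untreated libraries were above all others and the 72 h and 120 h libraries overlapped. The log2 fold change was -0.42 at 72 h (SE 0.117, limma adjusted p = 0.0202) and -0.34 at 120 h (adjusted p = 0.0267). Both calls were fragile: that at 72 h was lost without replicate 2 of untreated cells (adjusted p = 0.135) or either 72 h library (0.0913 and 0.0522), and that at 120 h without replicate 2 of untreated cells (0.16) or replicate 1 of the 120 h group (0.134). With median-of-ratios scaling the 120 h value was -0.017 (adjusted p = 0.901). In RPKM, all 3 listed transcripts of Cbx8 were lower, at 0.663 to 0.755 of their untreated mean in the 72 h group and 0.727 to 0.819 in the 120 h group.

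Cbx7, the chromodomain subunit known from stem cells, was near the floor. It lay between 0.22 and 0.81 RPKM in all 10 libraries, about 128 to 505 reads, below the filter of 1 RPKM in at least 2 libraries. In a fit with no filter its 120 h log2 fold change was -0.15 (limma adjusted p = 0.565), and the 2 libraries of the 72 h group (0.34 and 0.81 RPKM) and of the 120 h group (0.22 and 0.72 RPKM) spanned most of its range.

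The 3 chromodomain subunits among the 9 and Cbx6 differed in course, and within these 4 genes the largest share passed from Cbx2 to Cbx8. Their summed RPKM was 17.1 and 18.1 in untreated cells, 4.99 and 5.43 in the 72 h group and 3.39 and 3.95 in the 120 h group. Cbx2 held 68.7 and 66.0% of that sum in untreated cells, 67.6 to 68.9% in the 24 h and 40 h groups, 44.0 and 34.1% in the 72 h group and 24.4 and 16.3% in the 120 h group. The 72 h and 120 h libraries were below all others in this share. Cbx8 went from 16.5 and 18.2% of the sum to 38.5 and 39.2% in the 72 h group and 56.8 and 63.8% in the 120 h group, while its own level was lower in those groups than in untreated cells. The sum does not cover every Cbx gene, and shares were not tested by themselves.

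**Figure D3:**
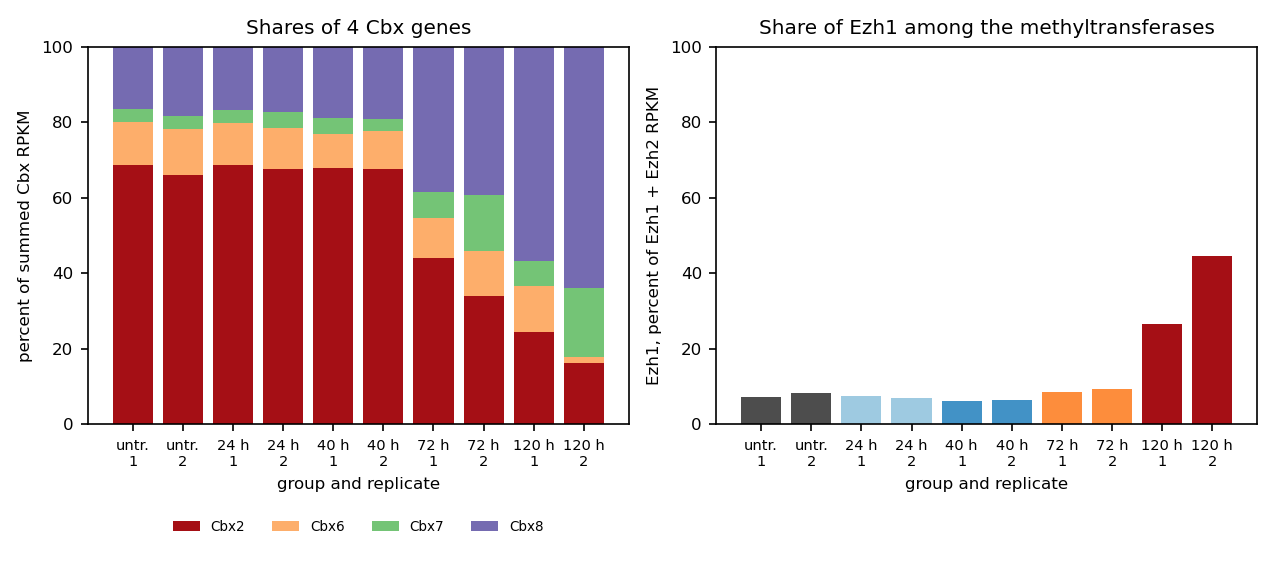
Left, the percent of the summed RPKM of Cbx2, Cbx6, Cbx7 and Cbx8 held by each (stacked bars, y axis from 0 to 100); right, Ezh1 as a percent of Ezh1 plus Ezh2; each bar is 1 library (x axis, group and replicate). Cbx2 made up 68.7 and 66.0% in untreated cells and 44.0 and 34.1% in the 72 h group, and Ezh1 26.5 and 44.7% in the 120 h group.

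In the main fit, none of the 8 tested genes was called after the shorter withdrawals. Levels still differed in the 40 h group, as for Cbx2 (mean 8.96 against 11.9 RPKM in untreated cells) and Bmi1 (21.2 against 17.6 RPKM). Both were called there without the 120 h group in the fit (limma adjusted p = 0.0291 and 0.0354). In the 24 h group none of the 8 tested was called by limma, none had an unadjusted p under 0.05 and none was called by voom on recovered reads, with 0% of all genes called. In the 40 h group none was called, 2 had an unadjusted p under 0.05 (Bmi1 and Cbx2) and none was called by voom, where 3.35% of all genes were lower and 0.93% higher, 4.28% in all. The intervals were widest for Eed, at -0.33 to 0.51 in the 24 h group, so changes of that size were not detectable with these libraries. Between the 24 h and 40 h groups none was called by limma or voom and 1 (Cbx2, -0.27, adjusted p = 0.421) had an unadjusted p under 0.05, where 0.115% of all genes were lower and 0.169% higher, 0.285% in all.

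In the 72 h group 2 of the 8 were called lower (Cbx2 and Cbx8) and none higher, where 22.3% of all genes were lower and 21.6% higher, 43.9% in all. Against the 40 h group, Cbx2 was called lower and no other member was called, against 13.8% of all genes lower, 13.9% higher and 27.7% in all. Against the 120 h group 4 were called higher (Ezh2, Suz12, Bmi1 and Cbx2) and 1 lower (Ezh1), where 51.0% of all genes were higher and 26.4% lower, 77.4% in all. The comparisons with untreated cells share the 2 untreated libraries.

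Cell markers and genes of dividing cells moved beside these subunits, and their part in the results was not tested. In the 120 h group all 12 genes of a proliferation list (6 Mcm genes of the replicative helicase, Pcna, Mki67, Top2a, Ccna2, Cdk1 and E2f1) were called lower, with a median log2 fold change of -1.27, or 10 of the 12 with median-of-ratios scaling. In the 72 h group none of the 12 was called by limma or by voom or had an unadjusted p under 0.05, with a median of -0.042, and 3 were called lower without the 120 h group in the fit. Their summed RPKM was 1510 and 1520 in untreated cells, 1455 and 1365 in the 72 h group and 753 and 408 in the 120 h group. Ezh2, Suz12 and Bmi1 were thus low in the same group as this list, but 52.7% of all genes were called lower there. Cbx2 was low in the 72 h group, where 3 of the 5 progenitor markers (median -1.69) were called lower and the proliferation list was not. In that group 22.3% of all genes were called lower.

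The other genes of PRC2 were read from a list of 10 accessory subunits, of which Ezhip was not listed in the files. Of the 9 tested, 6 were called lower and 2 higher in the 120 h group (median -0.60), and with median-of-ratios scaling 4 lower and 3 higher. Over all 13004 genes 52.7% were lower and 27.5% higher in that group, and with median-of-ratios scaling 5016 were lower and 5125 higher. In the 72 h group 1 of the 9 was lower and 1 higher, where 22.3% of all genes were lower and 21.6% higher. Those 2 counts were unsteady: both were 0 without either untreated library or without replicate 2 of the 72 h group, and 3 were lower and 2 higher without either 120 h library. None was lower without either 24 h library or without replicate 1 of the 72 h group. Epop, an accessory subunit that links PRC2 to elongin, fell from 7.26 and 6.49 to 0.77 and 0.24 RPKM (log2 fold change -2.41). Rbbp7, a histone-binding subunit, fell from 122 and 119 to 51.6 and 30.8 RPKM (-1.57), and Mtf2, which helps PRC2 bind CpG islands, from 47.3 and 46.2 to 17.1 and 14.9 RPKM (-1.49). Phf1, of the same Polycomb-like family as Mtf2, rose from 2.19 and 2.17 to 5.35 and 11.8 RPKM (1.51, and 1.00 without replicate 2 of the 120 h group), and its exons share 810 nt with other genes. Jarid2, which recruits PRC2, was not called (-0.042, limma adjusted p = 0.756), and was called higher with median-of-ratios scaling (0.38). With voom on recovered reads the value of Epop was -4.03. Exons of Mtf2 share 395 nt and those of Rbbp7 174 nt with other genes.

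The other genes of PRC1 moved in both directions. Of 21 on the list, Scml2 was not listed in the files, and of the 20 tested 13 were called lower and 4 higher in the 120 h group (median -0.37), with 8 lower and 6 higher when scaled by the median of ratios, and 4 lower and 6 higher in the 72 h group. The shares of all genes are those given for the PRC2 list. The 72 h count of higher genes was 1 without untreated replicate 1 or 72 h replicate 2, 2 without untreated replicate 2 or 72 h replicate 1, and 8 without either 120 h library. The 120 h count of higher genes was 2 without untreated replicate 2. Pcgf2, the close paralog of Bmi1, fell from 5.92 and 5.58 RPKM in untreated cells to 2.61 and 2.28 RPKM in the 72 h group (-0.97, limma adjusted p = 6.75e-05) and 0.37 and 0.32 RPKM in the 120 h group (-2.33, or -4.07 with voom on recovered reads). Pcgf6, of a variant PRC1, stood at 13.96 and 14.8 RPKM in untreated cells and 13.2 and 13.7 RPKM in the 72 h group, and fell to 2.07 and 1.85 RPKM in the 120 h group (-2.38, limma adjusted p = 5.67e-08). Pcgf2 was thus low in the 72 h group, as Cbx2 was, while Pcgf6 was low in the 120 h group, as Bmi1 was. Rybp, which takes the place of Cbx proteins in variant PRC1, rose from 4.08 and 3.94 RPKM to 6.05 and 6.76 RPKM in the 72 h group (0.56, limma adjusted p = 0.00109) and 13.3 and 14.1 RPKM in the 120 h group (1.55). Neither Pcgf1 (-0.0071, and 0.39 and called with median-of-ratios scaling) nor Mga (-0.24, and called lower without replicate 2 of the 120 h group) was called in the 120 h group, both of them parts of variant PRC1.

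Of 5 genes for removal of the Polycomb marks, 2 were called higher and 1 lower in the 120 h group (median 0.28), and with median-of-ratios scaling 4 were higher and 1 lower, beside the same shares of all genes. The count of higher genes was 4 without replicate 1 of the 120 h group and 1 without untreated replicate 1. Kdm6b, a demethylase of the PRC2 mark, was lower in the 72 h group (-0.63, limma adjusted p = 0.0231) and higher in the 120 h group (1.00, adjusted p = 9.52e-04), from 9.23 and 9.05 RPKM to 4.80 and 6.42 and to 16.1 and 23.0 RPKM. Bap1, the H2A deubiquitinase, fell from 32.2 and 32.2 to 14.7 and 14.98 RPKM (-1.07, or -0.65 with median-of-ratios scaling). Asxl1, its cofactor, rose from 11.6 and 13.2 to 15.4 and 19.7 RPKM (0.46, or 0.30 without replicate 2 of the 120 h group and 0.88 with median-of-ratios scaling). Kdm6a (0.25) and Asxl2 (0.28) were not called in the 120 h group and were called higher without its replicate 1, and Asxl2 was higher in the 72 h group (0.73, limma adjusted p = 0.00764). The 72 h calls of Kdm6b and Asxl2 did not hold in every fit that left out 1 library. Exons shared with other genes come to 286 nt in Kdm6b, 197 nt in Asxl1 and 111 nt in Asxl2.

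**Figure D4:**
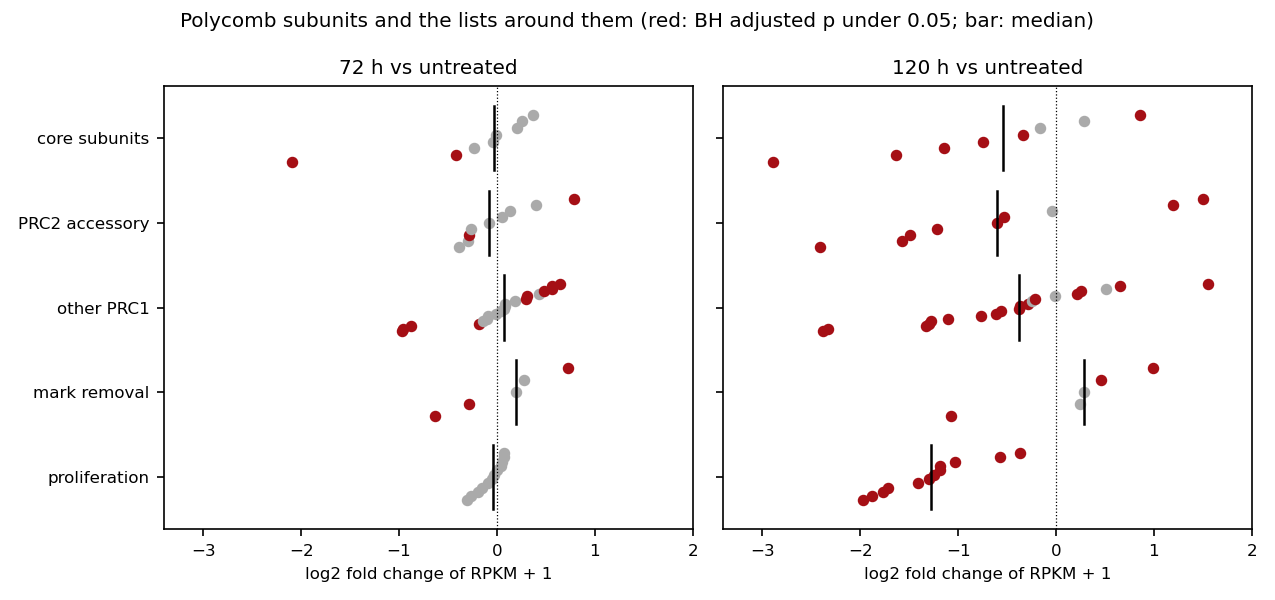
Log2 fold change of RPKM + 1 against untreated cells (x axis) in the 72 h (left) and 120 h (right) groups, with 1 point for each tested gene of the core subunits and 4 lists (rows); red marks an adjusted p under 0.05 and the bar is the median. The proliferation list had a median of -0.042 in the 72 h group and -1.27 in the 120 h group, and the core subunits -0.028 and -0.54; with median-of-ratios scaling the median of other PRC1 genes in the 120 h group turned from -0.37 to 0.034.

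Cdkn2a, a textbook target of Polycomb repression that encodes the cell cycle inhibitors p16 and p19, was abundant in untreated cells and lower after long withdrawal. It stood at 126 and 129 RPKM in untreated cells, 115 and 115 in the 24 h group, 104 and 103 in the 40 h group, 66.0 and 69.0 in the 72 h group and 66.7 and 59.0 in the 120 h group. The log2 fold change was -0.91 at 72 h (SE 0.0824, limma adjusted p = 6.37e-05) and -1.01 at 120 h (adjusted p = 8.49e-06, or -0.58 with median-of-ratios scaling). The 72 h and 120 h libraries overlapped and lay below all others. Its neighbour and fellow target Cdkn2b was at 0.016 to 0.086 RPKM in all 10 libraries.

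The genes most like each called subunit were found by the smallest root mean square difference, over the 8 libraries with withdrawal, in log2(RPKM + 1) minus the untreated mean, among 10292 coding genes. For Cbx2 these were Parp16 (0.0847) and Zfpm1 (0.136), for Ezh2 Rpn1 (0.0698) and Pcca (0.0710), and for Bmi1 U2af1 (0.0675) and Dnajc19 (0.0679). For Suz12 they were Haus2 (0.0445) and Jade1 (0.0457), for Cbx8 Nav1 (0.0447) and Itpkc (0.0459), and Ago4 (0.0636) was among the 2 for Ezh1. No other core subunit was among them. With 2 of 10292 genes kept for each, that says little about whether the subunits moved alike. Parp16, the nearest to Cbx2, stood at 11.97 RPKM on average in untreated cells, 2.10 RPKM in the 72 h group and 0.77 RPKM in the 120 h group.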

How the data were processed

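RNA from 10 libraries of cultured cells, 5 groups of 2 by their titles, was analysed. Per the file headers, the deposited values were RPKM for each Ensembl transcript. The submitters' processing notes name STAR and the GRCm38 build. The sources used here do not state the STAR version, the counting program, the annotation release or the use of strand. Transcript identifiers were matched without version to GENCODE M21 (77720 of 79535). Since isoforms share reads, each gene was read from 1 transcript, preferring coding ones, then the APPRIS principal, the CCDS and the longest. RPKM times length gave whole multiples of 1 read in 99.89 to 100% of the values tested per library (tolerance 0.02 reads), which gave the denominators and the recovered reads. Recovered reads are approximate for the 7 subunits whose transcript version differs from M21.

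Values were log2(RPKM + 1), kept for the 13004 genes that reached 1 RPKM in 2 or more libraries. The test was that of limma 3.58.1 (R 4.3.3) with a trend of variance on level, group as its single term and 1 spread shared by all 10 libraries. It was 2-sided, covered 7 comparisons, and called genes at a BH adjusted p under 0.05. Intervals are 95% limma intervals. The members and gene lists were chosen with earlier results of these data known. Besides the 9 members, Cbx6, Cdkn2a, Cdkn2b and the label checks, each Polycomb list named up to 4 called genes with the largest 120 h change and up to 2 uncalled ones with the highest RPKM. Some genes named by these rules are not reported here. The alternatives were a pseudocount of 0.1, no filter, 2 scalings, a replicate block, array weights, fewer groups in the fit, voom, another transcript and leaving out each library.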

Additional observations from a re-analysis of the deposited data

Results flagged for a closer look

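Effects in 2 groups were compared directly, and 6 of these differences passed limma's test with BH adjustment over 13004 genes. Cbx2 differed between the 72 h and 40 h groups by -1.72 on the log2 scale and between the 72 h and 120 h groups by 0.80. Between the 72 h and 120 h groups, Ezh2 differed by 1.40, Bmi1 by 1.34, Suz12 by 1.01 and Ezh1 by -0.87, with the sign taken as 72 h minus 120 h. With median-of-ratios scaling these were 0.97, 0.94, 0.57 and -1.27, and that of Cbx2 was 0.58. The 72 h group was cultured with E2 again for 48 h and the 120 h group was not, so duration and return cannot be told apart. Each kept its direction and its call in all 19 alternatives that could give it, or 20 for the difference between the 72 h and 40 h groups.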

How the results depend on the processing

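Over the 8 tested subunits and 7 comparisons, 1104 values were recomputed under alternatives: 1045 kept their side of the threshold with no called change of sign, 13 lost a call, 43 gained one, and 3 reversed; 26 of the 1045 were uncalled values that changed sign. With median-of-ratios scaling, 3 subunits rather than 1 were higher in the 120 h group than in untreated cells and 3 rather than 1 were lower at 72 h than at 120 h, and Rnf2 reversed, to 0.26 against untreated cells and to -0.31 for 72 h against 120 h. Eed at 72 h against 120 h reversed to -0.25 without replicate 1 of the 120 h group, and was 0.41 without replicate 2. For 72 h against untreated cells, the main count of 0 higher became 3 with array weights, 2 with only the groups compared, 3 without the 120 h group and 1 with the highest transcript, and the count of 2 lower became 1 with no filter or with the highest transcript and 3 with array weights, with only the groups compared or without the 120 h group. For 40 h against untreated cells, 0 higher became 1 with array weights or without the 120 h group, and 0 lower became 1 with either of these or with only the groups compared. For 72 h against 40 h, 0 higher became 1 and 1 lower became 2 with only the groups compared or without the 120 h group. Leaving out 1 library gave, against untreated cells, 1 to 2 higher and 4 to 5 lower at 120 h, 0 to 3 higher and 1 to 3 lower at 72 h, and 0 to 1 of each at 40 h; it gave 0 to 1 higher and 1 to 2 lower for 72 h against 40 h, and 4 to 5 higher and 1 to 2 lower for 72 h against 120 h. The cause of the larger counts at 40 h and 72 h was not tested. The share of called genes that were higher at 120 h was 34.3%, and 50.5% with median-of-ratios scaling. Same-numbered replicates deviated together with r from 0.0341 to 0.639 over 10 pairs of groups. All were above 0, 2 were under 0.1, and the highest was between the 72 h and 120 h groups. What same-numbered libraries shared was not tested, and the main fit did not pair them. A replicate block changed no count of called subunits (1 higher and 5 lower at 120 h). It moved calls over all genes from 10440 to 10787 at 120 h and from 557 to 693 at 40 h. Comparisons with the 120 h group have no value without it. With 2 libraries a group, small changes of low genes such as Cbx7 and Cbx8 are the least certain.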
